A study of Mus musculus with 8 samples.

Results

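The type II hair shaft keratins are the basic partners of the keratin filaments that fill the hair fibre. The listed family has 7 genes, taken by name from the deposited expression tables. Of these, 6 were found in both tables (Krt81, Krt82, Krt83, Krt84, Krt86 and Krt87), among 29647 genes in the untreated table and 29246 in the 5-aza table; the other listed gene was not analysed here. A keratin filament is built from pairs of a type I and a type II chain. The hair keratins carry many cysteines and are cross-linked to each other and to keratin-associated proteins as cells of the hair matrix move up and harden into the shaft. From work on human hair, KRT81, KRT83 and KRT86 are known as keratins of the shaft cortex and as the genes mutated in monilethrix, a beaded-hair disorder. In humans KRT82 is known from the hair cuticle and KRT84 from the filiform papillae of the tongue, and the human counterpart of Krt87 is a pseudogene.

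RNA was sequenced from hair matrix keratinocytes, the dividing cells at the base of the follicle, which were sorted by flow cytometry from mouse skin at postnatal day 4.5. The groups were Tet2/Tet3 DKO, Krt14-Cre mice and WT mice, each without treatment or after 50 µg of 5-aza given under the skin at postnatal day 2.5, with 2 libraries per group. Tet2 and Tet3 encode enzymes that oxidise 5-methylcytosine in DNA, 5-aza inhibits DNA methyltransferases, and the Krt14 promoter drives Cre in basal keratinocytes and their descendants. The labels do not say whether WT mice carried Cre, which surface markers the sort used, whether libraries came from separate animals, or whether animals were pooled. All p-values therefore measure the spread between these libraries alone.

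Depth and identity of the libraries bear on what follows. Library totals lay between 19528602 and 22837436 reads without treatment and between 39493929 and 58353167 after 5-aza. The part of these totals in listed genes differed less. It lay between 11825515 and 14132115 reads without treatment and between 16744915 and 23512270 after 5-aza. The 6 keratins together took 5267 and 7080 reads in untreated DKO libraries, against 614 and 914 in untreated WT libraries. After 5-aza they took 1440 and 6616 reads in DKO libraries, against 3004 and 1236 in WT libraries. Tet3 had 6.92 and 7.31 FPKM (fragments per kilobase of gene, scaled to the library total) in untreated DKO libraries, against 11.8 and 11.4 FPKM in WT libraries; these are whole-gene values, and the deleted exons were not read apart. Tet2 had 2.72 and 2.55 FPKM in untreated DKO libraries, against 3.23 and 3.28 FPKM in WT libraries. Hair matrix markers, 7 of 7 found, summed to 229 and 264 FPKM in untreated DKO libraries and to 175 and 245 FPKM in untreated WT libraries; 1 of them, Krt35, is itself a type I hair keratin. Replicate 1 of each untreated genotype had high Xist (74.4 FPKM in DKO, 82.1 FPKM in WT) and replicate 2 of each had little (1.19 FPKM in DKO, 0.327 FPKM in WT). Each of the 5-aza libraries held both Xist and Y-linked reads, with Xist at 4.60 and 3.65 FPKM in DKO and at 16.9 and 23.1 FPKM in WT. The 2 tables were scaled separately, so levels are set side by side across them but not tested.

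The 6 genes lie within 119630 bases of the type II keratin cluster, at chr15:101431038-101550667 (GRCm38), in the order Krt87, Krt81, Krt86, Krt83, Krt84 and Krt82. Krt86 is on the plus strand and the other 5 are on the minus strand, and no annotated gene overlaps any of them. Their coding sequences, read from GENCODE M21 transcripts, fall into an alike set and a diverged pair. Krt81, Krt83 and Krt86 were 94.0% to 94.2% identical to each other, Krt87 was 91.5% to 91.9% identical to these 3, and Krt82 and Krt84 shared 72.3% to 74.7% of aligned bases with any other member. The most alike stretch of 60 bases over the 6 genes shows how little separates them there. It lies at chr15:101433194-101433253 for Krt87, chr15:101460216-101460275 for Krt81, chr15:101487065-101487124 for Krt83, chr15:101477321-101477380 for Krt86, chr15:101542782-101542841 for Krt82 and chr15:101527797-101527856 for Krt84, and capitals mark bases unlike Krt81.
Krt87: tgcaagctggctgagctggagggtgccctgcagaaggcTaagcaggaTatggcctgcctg
Krt81: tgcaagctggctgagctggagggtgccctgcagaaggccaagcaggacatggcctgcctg
Krt83: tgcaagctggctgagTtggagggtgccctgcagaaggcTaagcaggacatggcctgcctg
Krt86: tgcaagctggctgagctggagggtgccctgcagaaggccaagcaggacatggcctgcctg
Krt82: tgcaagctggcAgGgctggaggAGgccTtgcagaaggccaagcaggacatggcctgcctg
Krt84: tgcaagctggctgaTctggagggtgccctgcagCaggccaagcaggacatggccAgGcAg
Krt86 has the same letters as Krt81 throughout this stretch, so a read inside it cannot be placed on either gene. In the stretch below, Krt83, Krt86 and Krt87 are together least like Krt81, from which they differ at 12, 4 and 13 of 60 bases. This stretch is shown because a read there that covers differing bases can be placed. It lies at chr15:101435482-101435541 for Krt87, chr15:101461763-101461822 for Krt81, chr15:101488373-101488432 for Krt83, chr15:101475405-101475464 for Krt86, chr15:101546114-101546173 for Krt82 and chr15:101530212-101530271 for Krt84, with the same use of capitals.
Krt87: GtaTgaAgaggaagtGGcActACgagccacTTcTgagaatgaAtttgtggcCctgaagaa
Krt81: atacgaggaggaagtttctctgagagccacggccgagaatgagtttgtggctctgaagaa
Krt83: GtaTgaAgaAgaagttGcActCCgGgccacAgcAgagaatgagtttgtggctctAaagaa
Krt86: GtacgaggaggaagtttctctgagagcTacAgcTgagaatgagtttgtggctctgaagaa
Krt82: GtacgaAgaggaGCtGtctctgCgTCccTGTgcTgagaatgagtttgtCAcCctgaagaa
Krt84: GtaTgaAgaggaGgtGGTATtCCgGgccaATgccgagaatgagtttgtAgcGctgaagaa
Over all coding windows of 150 bases, 21.8% of those of Krt81 (282 of 1294) occur without a mismatch in another gene, Krt86 or Krt87. The share was 19.9% for Krt86 (261 of 1309), 1.57% for Krt87 (21 of 1336) and 0 for Krt82, Krt83 and Krt84. The authors' rows list reads with more than 1 best alignment apart from the gene values, so the levels of Krt81, Krt86 and, less, Krt87 leave such reads out and the split between them is uncertain.

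Promoters of Krt84 and Krt82 were found in RefSeq's table for GRCm38.p6, and the longest run of letters that both hold on the same strand is shown. The stretches printed lie at chr15:101532864-101532954 for Krt84 and chr15:101550701-101550791 for Krt82, both on the minus strand, with the shared run in capitals.
Krt84: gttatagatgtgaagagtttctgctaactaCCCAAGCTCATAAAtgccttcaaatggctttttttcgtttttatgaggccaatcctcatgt
Krt82: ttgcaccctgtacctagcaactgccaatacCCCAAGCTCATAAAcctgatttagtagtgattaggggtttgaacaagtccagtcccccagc
CCCAAGCTCATAAA begins 104 bases before the annotated start of Krt84 and 102 bases before that of Krt82, and ends 91 and 89 bases before them. On either strand it is present in 2 of 32851 promoters of this length (0.00609%), which are these 2. The run was chosen from these 2 promoters, so their presence in the count was fixed beforehand. The match is a description of the letters and was not tested as a site.

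Without treatment, the 6 genes were all higher in DKO than in WT hair matrix cells, and 4 of them by 7.26-fold to 11.7-fold. Krt81 and Krt87 showed the largest ratios of mean FPKM among the 6, followed by Krt86 and Krt83, while Krt82 and Krt84 stayed at low levels in both genotypes. Among the 17339 genes tested, 0.421% had a mean FPKM at least 5-fold higher in DKO. That cut-off was also reached by Krt84, at 5.57-fold on few reads, and not by Krt82, at 2.03-fold. Whether more cells of a kind or more RNA per cell were present cannot be told apart in bulk libraries.

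Krt87, the most abundant member in each of the 8 libraries, had 42.6 and 70.0 FPKM in untreated DKO libraries, against 4.79 and 6.73 FPKM in WT libraries. Its mean was 56.3 ± 19.4 FPKM in DKO and 5.76 ± 1.38 FPKM in WT (SD, n = 2 each), a ratio of 9.78. The lower DKO library stood 6.34-fold above the higher WT library. Krt81 had 25.7 and 34.8 FPKM in DKO libraries, against 1.77 and 3.38 FPKM in WT libraries. Its means of 30.2 ± 6.44 FPKM in DKO and 2.58 ± 1.14 FPKM in WT (SD, n = 2 each) gave the highest ratio of the family, 11.7. DKO and WT libraries of Krt81 did not overlap, and the gap between the nearest libraries was 7.59-fold. Krt83 had 16.5 and 26.5 FPKM in DKO libraries, against 2.60 and 3.32 FPKM in WT libraries, with means of 21.5 ± 7.03 and 2.96 ± 0.504 FPKM (SD, n = 2 each) and a ratio of 7.26. Krt86, the single member on the plus strand, had 14.1 and 19.3 FPKM in DKO libraries, against 1.50 and 2.83 FPKM in WT libraries. Its means were 16.7 ± 3.66 FPKM in DKO and 2.17 ± 0.940 FPKM in WT (SD, n = 2 each), a ratio of 7.70. For both Krt83 and Krt86 the DKO libraries lay well above the WT libraries, with nearest libraries 4.98-fold and 4.97-fold apart.

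Krt82, known from the cuticle of human hair, had 0.793 and 1.71 FPKM in untreated DKO libraries, against 0.646 and 0.585 FPKM in WT libraries. The groups did not overlap, but the lower DKO library was only 1.23-fold above the higher WT library, and the DKO libraries differed from each other by 2.15-fold. Krt84 had 0.257 and 0.481 FPKM in DKO libraries, against 0.0147 and 0.118 FPKM in WT libraries. These values rest on 17 and 28 reads in DKO and on 1 and 8 reads in WT, so its ratio is poorly fixed.

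**Figure D1:**
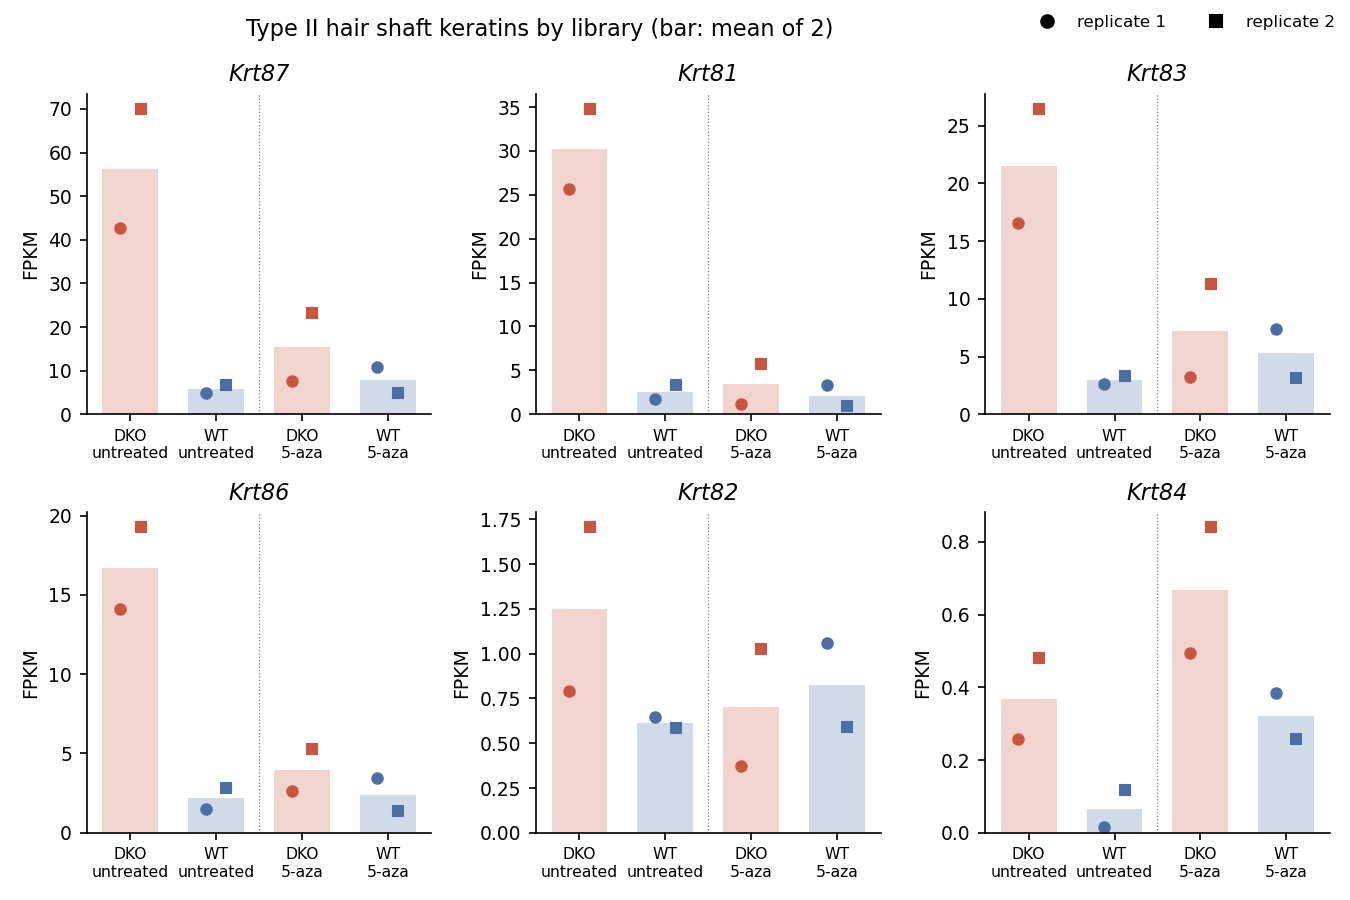
FPKM of each keratin in every library (points) with the mean of 2 libraries (bars), DKO left of WT, untreated groups left of the dotted line and 5-aza groups right of it, each panel on its own linear scale from 0. Without treatment the DKO points of Krt87 (42.6 and 70.0) and Krt81 (25.7 and 34.8) lie far above the WT points, whereas after 5-aza the DKO and WT points interleave for every member but Krt84.

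In the test over all genes, limma on log2(FPKM + 1) with Benjamini-Hochberg adjustment, 0 of the 6 passed the threshold of 0.05 on the adjusted p, nor did any other gene that was higher in DKO (0 of 17339). At an unadjusted p under 0.05, 5 of the 6 were higher in DKO (all but Krt82), against 6.72% of all genes tested. All 6 had both DKO libraries above both WT libraries, as did 24.1% of all genes tested. The log2 difference, DKO minus WT, was 3.15 ± 0.27 for Krt81 (SE, limma adjusted p = 0.0831) and 3.06 ± 0.28 for Krt87 (limma adjusted p = 0.0853). It was 2.48 ± 0.24 for Krt83 (limma adjusted p = 0.0992) and 2.5 ± 0.26 for Krt86 (limma adjusted p = 0.105). Smaller differences were found for Krt82, 0.45 ± 0.21 (limma adjusted p = 0.496), and Krt84, 0.36 ± 0.10 (limma adjusted p = 0.312). The log2 difference of Krt84 depends on the constant added, and was 1.53 with 0.1 in place of 1. With limma-voom on whole reads recovered from the FPKM, 4 of the 6 passed: Krt81 (limma-voom adjusted p = 0.0117), Krt87 (adjusted p = 0.0155), and Krt83 and Krt86 (adjusted p = 0.0213 each), against 0.3% of all genes tested. The median log2 difference of the 6 was 2.49, against 0.01 over all genes tested.

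The authors' deposited table, which tested the untreated libraries with DESeq2, called 4 of the 6 higher in DKO, against 0.793% of its genes. By the authors' deposited table, the log2 fold change, DKO over WT, was 3.54 for Krt81 (adjusted p = 3.46e-12), 3.27 for Krt87 (adjusted p = 6.97e-14), 2.93 for Krt86 (adjusted p = 9.07e-26) and 2.84 for Krt83 (adjusted p = 1.93e-34). Krt82, at 0.99, and Krt84, at 2.47, did not pass in the authors' deposited table (adjusted p = 0.999 and 0.495). Both tests gave a positive difference for each of the 6 genes, and differed in which passed.

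For Krt81, Krt83, Krt86 and Krt87 the differences were of like size within each replicate number. Between the libraries with high Xist (replicate 1), DKO minus WT on the log2 scale was 3.27 for Krt81, 2.92 for Krt87, 2.59 for Krt86 and 2.28 for Krt83. Between those with little Xist (replicate 2) it was 3.03 for Krt81, 3.20 for Krt87, 2.40 for Krt86 and 2.67 for Krt83. The log2 difference of Krt82 was 0.12 in replicate 1 and 0.77 in replicate 2, so most of its mean came from replicate 2. Markers of other cells were detected. Melanocyte markers, 6 of 6 found and none at 0, summed to 33.9 and 36.5 FPKM in untreated DKO libraries and 27.4 and 27.9 FPKM in WT libraries. Dermal papilla markers summed to 174 and 164 FPKM in DKO libraries and 238 and 214 FPKM in WT libraries, with 7 of 9 below WT in both DKO libraries, against 19.3% of all genes tested. Immune markers, 6 of 6 found, summed to 12.2 and 14.6 FPKM in DKO libraries and 7.94 and 8.86 FPKM in WT libraries. Dermal fibroblast markers, also 6 of 6, summed to 1348 and 1133 FPKM in DKO libraries and 465 and 1255 FPKM in WT libraries. Markers of interfollicular epidermis and its basal layer, 5 of 5 found, summed to 876 and 1065 FPKM in DKO libraries and 653 and 563 FPKM in WT libraries. The 4 endothelial markers summed to 2.54 and 1.86 FPKM in DKO libraries and 1.24 and 1.09 FPKM in WT libraries. Both DKO libraries stood above both WT libraries for 4 of 4 endothelial, 4 of 6 melanocyte and 3 of 6 immune markers. The same held for 2 of 5 interfollicular markers (Krt5 and Krt14, not Krt1, Krt10 or Lor) and 0 of 6 dermal fibroblast markers, against 24.1% of all genes tested. In the other direction were 1 immune and 1 dermal fibroblast marker. The part of these cells in the keratin differences was not tested.

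After 5-aza, the DKO and WT libraries of 5 of the 6 genes overlapped. Krt87 had 7.54 and 23.2 FPKM in DKO libraries, against 10.8 and 4.94 FPKM in WT libraries. Krt83 had 3.22 and 11.3 FPKM in DKO libraries, against 7.39 and 3.18 FPKM in WT libraries. In both genes the higher DKO library led, a WT library came next, and the remaining libraries of each genotype were lowest. Krt86 had 2.63 and 5.25 FPKM in DKO libraries, against 3.46 and 1.35 FPKM in WT libraries. Krt81 had 1.18 and 5.73 FPKM in DKO libraries, against 3.38 and 0.890 FPKM in WT libraries. Its DKO libraries differed from each other by 4.84-fold and its WT libraries by 3.80-fold, both more than the ratio of the group means, 1.62. Krt82 had 0.374 and 1.03 FPKM in DKO libraries, against 1.06 and 0.592 FPKM in WT libraries, and was the single member with a lower mean in DKO (0.849 of the WT mean). Krt84 was the exception to the overlap, with 0.493 and 0.840 FPKM in DKO libraries, against 0.384 and 0.257 FPKM in WT libraries, a ratio of means of 2.08.

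By limma, 0 of the 6 passed after 5-aza, as did 0 of 16856 genes in either direction, and limma-voom also called 0. At an unadjusted p under 0.05 there were 1120 genes higher and 387 lower. This imbalance depended on the scaling. The counts were 741 and 707 when scaled to reads in listed genes, and 816 and 588 with median-of-ratios scaling. With limma-voom they were 791 and 668. Krt84 was the 1 member of 6 with an unadjusted p under 0.05 and with both DKO libraries above both WT libraries. Over all genes tested these shares were 6.64% and 28%. The log2 difference, DKO minus WT, was 0.78 ± 0.61 for Krt87 (SE, limma adjusted p = 0.769), 0.56 ± 0.41 for Krt86 (limma adjusted p = 0.759) and 0.41 ± 0.69 for Krt81 (limma adjusted p = 0.904). It was 0.33 ± 0.12 for Krt84 (limma adjusted p = 0.551), 0.28 ± 0.62 for Krt83 (limma adjusted p = 0.933) and -0.12 ± 0.23 for Krt82 (limma adjusted p = 0.924). The median of the 6 was 0.37, against 0.03 over all genes tested. That median was -0.18 without DKO replicate 2, -0.05 without WT replicate 2, 1.00 without DKO replicate 1 and 0.90 without WT replicate 1. The authors' deposited table also called 0 of the 6 after 5-aza, against 0.547% of its genes in the higher direction. By the authors' deposited table, the log2 fold change, DKO over WT, was 1.00 for Krt84, 0.91 for Krt87, 0.66 for Krt86, 0.65 for Krt81, 0.40 for Krt83 and -0.28 for Krt82, each with an adjusted p of 0.9997.

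DKO replicate 2 and WT replicate 1 stood above DKO replicate 1 and WT replicate 2 in 5 of the 6 genes after 5-aza (all but Krt84), as in 23.6% of all genes tested. Melanocyte markers moved with this order: they summed to 26.6 and 134 FPKM in DKO libraries and 93.3 and 19.7 FPKM in WT libraries, and 6 of 6, led by Pmel and Mlana, had it. Dermal papilla markers summed to 22.4 and 48.6 FPKM in DKO libraries and 66.0 and 28.4 FPKM in WT libraries, and 6 of 9 had the same order. Dermal fibroblast markers summed to 96.9 and 140 FPKM in DKO libraries and 144 and 67.8 FPKM in WT libraries, and 5 of 6 had it. Endothelial markers were scarce, at 0.191 and 0.494 FPKM in DKO libraries and 0.504 and 0.168 FPKM in WT libraries, and 3 of 4 had it. Hair matrix markers summed to 313 and 275 FPKM in DKO libraries and 247 and 275 FPKM in WT libraries, and 2 of 7 had it. Immune markers were scarce, at 2.73 and 2.89 FPKM in DKO libraries and 2.85 and 2.72 FPKM in WT libraries, with Cd207 and Lyz2 at 0 in some library. Most of each immune sum was Cd68, and 1 of 6 immune markers had the order. In 4 of 6 (Ptprc, H2-Aa, Cd207 and Lyz2) both DKO libraries stood above both WT libraries. These 4 were at 0.131 FPKM or less and did not pass the low-value filter. Interfollicular markers summed to 404 and 466 FPKM in DKO libraries and 281 and 231 FPKM in WT libraries, and 0 of 5 had the order. Most of each sum was Krt5, at 330 and 363 FPKM in DKO libraries and 236 and 200 FPKM in WT libraries. Krt1, Krt10 and Lor were low, at 4.9 FPKM or less in every 5-aza library. All 5 interfollicular markers were higher in both DKO libraries, as were 28% of all genes tested. The part of other cells, and of Xist level, in the keratin values was not tested.

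**Figure D2:**
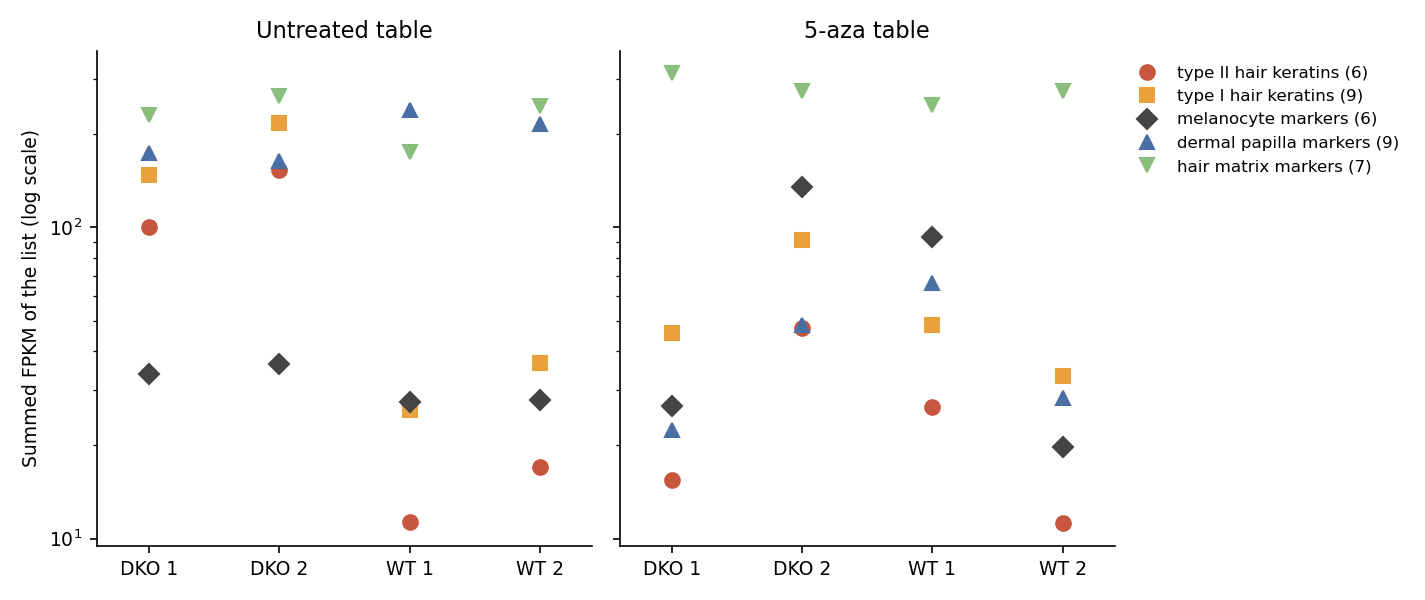
Summed FPKM (log scale) of the type II and type I hair keratins and of 3 marker lists in each library, with the number of genes in each sum in the legend. Without treatment both keratin sums are high in the DKO libraries alone, and after 5-aza they are highest in DKO 2, as the melanocyte sum is (134 FPKM).

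The change of the genotype difference with 5-aza was tested as an interaction over the 8 libraries, the difference after 5-aza minus the difference without treatment. It was -2.74 ± 0.84 on the log2 scale for Krt81 (SE, limma adjusted p = 0.797), -2.28 ± 0.76 for Krt87 (limma adjusted p = 0.835), -2.20 ± 0.76 for Krt83 (limma adjusted p = 0.846) and -1.94 ± 0.55 for Krt86 (limma adjusted p = 0.779). Krt82 had -0.57 ± 0.35 (limma adjusted p = 0.922) and Krt84 -0.03 ± 0.17 (limma adjusted p = 0.997). Both values depend on the constant added, and were -1.12 for Krt82 and -0.68 for Krt84 with 0.1 in place of 1. None of the 6 passed over the 15699 genes tested, of which limma called 3, with 0.0127% in the negative direction. At an unadjusted p under 0.05 the value was negative for 4 of the 6, against 2.59% of all genes tested. With 1 library left out, Krt81 and Krt86 stayed under 0.05. Without untreated DKO replicate 2, untreated WT replicate 1 or 5-aza WT replicate 1, Krt83 did not (limma unadjusted p = 0.0812, 0.0661 and 0.0722), nor did Krt87 (limma unadjusted p = 0.0742, 0.0645 and 0.0648). The value of Krt83 was -1.43 without 5-aza DKO replicate 1. The gap between the genotypes was thus smaller after 5-aza for these 4 genes by the estimates, without passing the adjusted threshold.

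**Figure D3:**
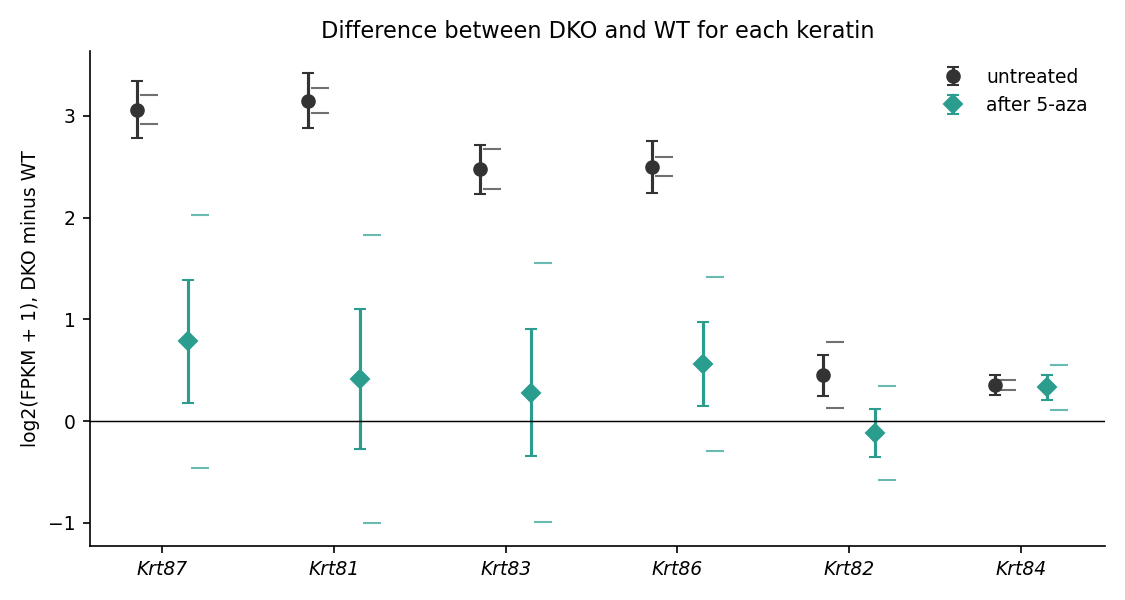
Difference between DKO and WT in log2(FPKM + 1) for each keratin (points, with SE from limma as bars) without treatment and after 5-aza, with short lines for the difference within replicate 1 and within replicate 2. The untreated points of Krt81 (3.15), Krt87 (3.06), Krt86 (2.5) and Krt83 (2.48) stand apart from 0, and the lines after 5-aza fall on both sides of 0 for 5 of the 6 genes.

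Side by side, without a test across the tables, Krt81 had a mean of 3.46 ± 3.22 FPKM in 5-aza DKO libraries and 30.2 ± 6.44 FPKM in untreated DKO libraries (SD, n = 2 each). In WT it had 2.13 ± 1.76 FPKM after 5-aza and 2.58 ± 1.14 FPKM without treatment (SD, n = 2 each). Krt87 had 15.4 FPKM on average in 5-aza DKO libraries and 56.3 FPKM in untreated DKO libraries, against 7.86 FPKM in 5-aza WT libraries and 5.76 FPKM in untreated WT libraries. Krt83 had 7.24 FPKM on average in 5-aza DKO libraries and 21.5 FPKM in untreated DKO libraries, against 5.28 FPKM in 5-aza WT libraries and 2.96 FPKM in untreated WT libraries. FPKM is scaled to the library total. Of that total, 38.0% to 44.2% lay in no listed gene in untreated libraries and 57.6% to 61.6% in 5-aza libraries. Small differences across the tables, such as that of Krt81 in WT, therefore rest on this scaling. By FPKM, Krt81, Krt83 and Krt87 had lower means after 5-aza in DKO. In WT the mean FPKM was lower after 5-aza for Krt81 and higher for Krt83 and Krt87. Krt84 differed from them, with 0.667 FPKM on average in 5-aza DKO libraries and 0.369 FPKM in untreated DKO libraries, against 0.320 FPKM in 5-aza WT libraries and 0.0663 FPKM in untreated WT libraries.

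The order of the members by FPKM was nearly the same in the untreated groups. In untreated DKO libraries Krt87 led, above Krt81, Krt83, Krt86, Krt82 and Krt84, with overlapping ranges for Krt81 and Krt83 and for Krt83 and Krt86. In untreated WT libraries Krt87 also led and Krt82 and Krt84 were lowest, while the ranges of Krt83, Krt81 and Krt86 overlapped. As a share of the summed FPKM of the 6 genes, Krt87 made up 44.2% ± 2.26 in untreated DKO and 41.0% ± 1.84 in WT (SD, n = 2 each). Krt81 made up 25.7% and 22.8% in untreated DKO libraries, against 15.6% and 19.9% in WT libraries. Krt82 made up 0.793% and 1.12% in untreated DKO libraries, against 5.71% and 3.45% in WT libraries. Krt81 thus held a larger part of the family's level in both DKO libraries and Krt82 a smaller part, and the shares of 1 library are tied to each other because they sum to a whole.

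After 5-aza, Krt81 made up 7.66% and 12.1% in DKO libraries, against 12.8% and 7.93% in WT libraries, below its share in each untreated library. Krt83 made up 20.8% and 23.8% in 5-aza DKO libraries, against 27.9% and 28.4% in WT libraries. Krt87 made up 48.8% and 49.1% in 5-aza DKO libraries, against 40.8% and 44.1% in WT libraries. Within the 5-aza table Krt87 therefore held more, and Krt83 less, of the family's level in both DKO libraries. These shares were given no test, and the labels name 2 library kits without tying either to a group.

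**Figure D4:**
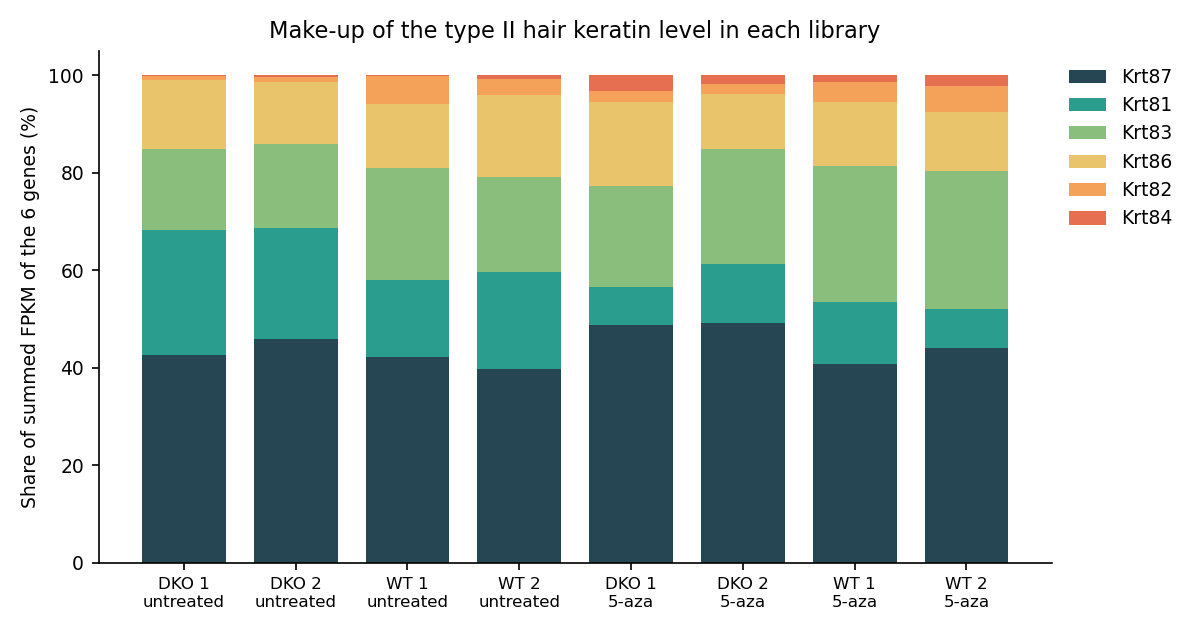
Share of the summed FPKM of the 6 type II hair keratins (percent, stacked to 100) taken by each gene in every library, DKO left of WT, untreated left of 5-aza. Krt87 is the largest part throughout, and Krt81 is a larger part in the untreated DKO libraries (25.7% and 22.8%) than in the others.

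Type I hair keratins are the filament partners of these chains. The 9 type I hair keratins summed to 147 and 217 FPKM in untreated DKO libraries, against 25.9 and 36.5 FPKM in WT libraries, and the 6 type II genes to 99.99 and 153 FPKM in DKO libraries, against 11.3 and 17.0 FPKM in WT libraries. The ratio of summed type II to summed type I level was 0.678 and 0.705 in untreated DKO libraries, against 0.437 and 0.464 in WT libraries, with no overlap. After 5-aza this ratio was 0.337 and 0.520 in DKO libraries, against 0.546 and 0.337 in WT libraries, with full overlap. Krt35 alone gave 11.9 and 15.6 FPKM of the type I sum in untreated WT libraries. In untreated DKO libraries it gave 31.6 and 48.2 FPKM, a ratio of means of 2.90. The untreated ratio of sums therefore depends in part on Krt35, and the ratio without Krt35 was not computed. The type II sum leaves out the listed gene that was not analysed. Of the type I genes 8 were tested, and 7 had both untreated DKO libraries above both WT libraries, against 24.1% of all genes tested; the median log2 difference was 2.13. The authors' deposited table called 6 of the 9 type I genes higher in untreated DKO, against 0.793% of its genes, and 1, Krt35, after 5-aza, against 0.547%. The 4 genes with the smallest p were Krt34, at 13.1 and 19.8 FPKM in DKO libraries, against 1.12 and 1.70 FPKM in WT libraries, and Krt31, Krt33a and Krt33b, at 8.22-fold to 9.20-fold. None passed limma's adjusted threshold (smallest adjusted p = 0.0831, for Krt34). After 5-aza the type I median was 0.32.

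The type II keratins that flank these genes on chromosome 15 gave lower medians than the members without treatment. The 5 genes of the inner root sheath and companion layer, which wrap the growing shaft, had a median log2 difference of 0.27 without treatment. Krt73, an inner root sheath keratin, had 65.4 and 77.8 FPKM in untreated DKO libraries, against 33.6 and 23.4 FPKM in WT libraries, and the authors' deposited table called it higher (log2 fold change 1.29, adjusted p = 3.21e-10). Krt71, another inner root sheath keratin, had 143 and 217 FPKM in DKO libraries, against 88.4 and 58.1 FPKM in WT libraries (limma adjusted p = 0.286). Krt75, of the companion layer, had 12.7 and 18.2 FPKM in DKO libraries, against 12.9 and 15.6 FPKM in WT libraries, which overlap. Krt74, at 0.147 and 0.0669 FPKM in DKO libraries, against 0.200 and 0.186 FPKM in WT libraries, was the single gene of the 5 with a lower mean in DKO. After 5-aza the median of these 5 was -0.08 and the libraries of Krt71 and Krt73 overlapped.

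The 14 other type II genes of the cluster had a median log2 difference of 0.25 without treatment (11 tested) and 0.66 after 5-aza (10 tested). Krt6a, induced in stressed and companion-layer keratinocytes, had 4.04 and 4.81 FPKM in untreated DKO libraries, against 0.992 and 1.45 FPKM in WT libraries. Its 5-aza values were 2.87 and 6.40 FPKM in DKO libraries, against 1.73 and 1.18 FPKM in WT libraries, so it did not overlap in either table. Krt80, at the end of the cluster, had 1.37 and 1.30 FPKM in 5-aza DKO libraries, against 0.412 and 0.414 FPKM in WT libraries. The authors' deposited table called Krt80 higher after 5-aza (log2 fold change 1.62, adjusted p = 8.81e-16) and not without treatment (0.99, adjusted p = 0.999). Krt7, a keratin of simple epithelia that neighbours Krt87, had 0.160 and 0.264 FPKM in untreated DKO libraries, against 0.179 and 0.0896 FPKM in WT libraries. Krt6b had 0.546 and 1.47 FPKM in untreated DKO libraries, against 0.0590 and 0.0592 FPKM in WT libraries. Its ratio of means, 17.1, was above that of every member, on low values. By the authors' deposited table its log2 fold change was 4.06 (adjusted p = 0.00116), also above every member. The authors' deposited table called 3 of the 14 higher without treatment (Krt5, Krt6a and Krt6b), against 0.793% of its genes, and 3 after 5-aza (Krt5, Krt7 and Krt80), against 0.547%.

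**Figure D5:**
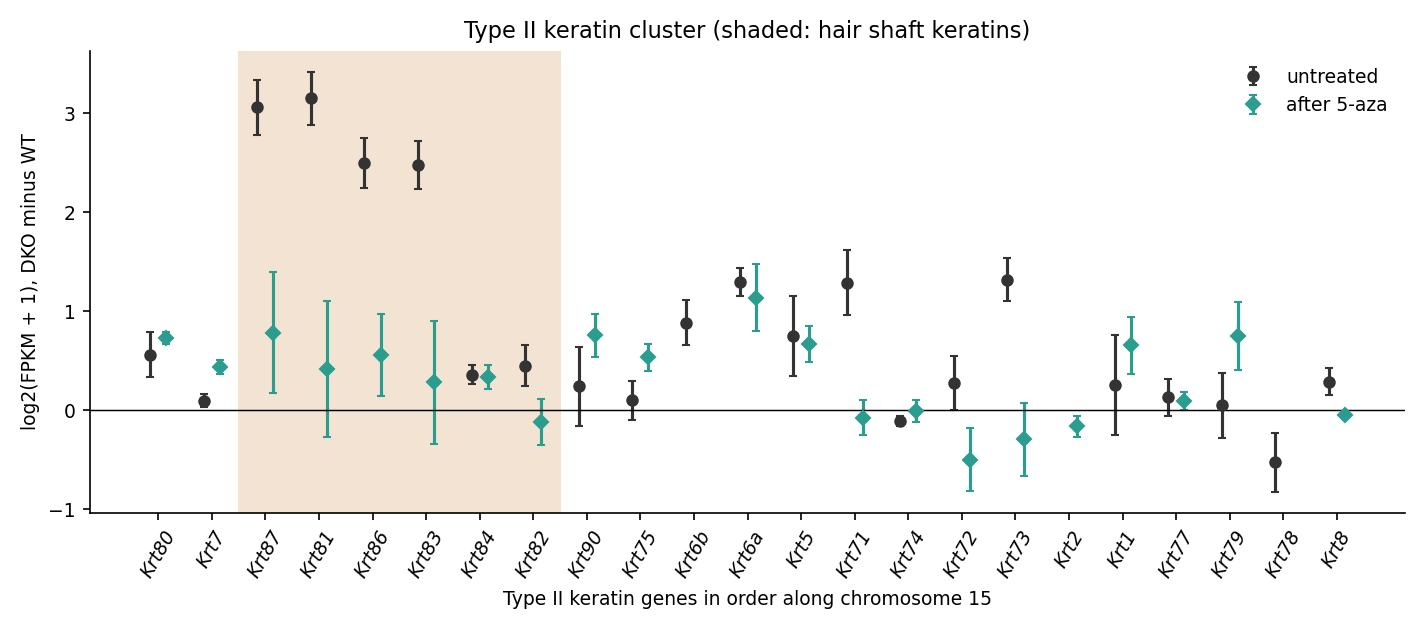
Difference between DKO and WT in log2(FPKM + 1), with SE from limma, for type II keratin genes in their order along chromosome 15 (not to scale), without treatment and after 5-aza, for genes that passed the low-value filter of that table. The hair shaft keratins are shaded. On this scale the untreated points of Krt87, Krt81, Krt86 and Krt83 lie above 2, higher than those of every flanking gene drawn. The added 1 narrows the differences of genes at low FPKM, such as Krt6b, whose untreated ratio of means was 17.1.

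Regulators of hair keratin genes gave a median closer to that of all genes. Over 14 transcription factors and signalling genes with a known part in the matrix or shaft the median log2 difference was 0.11 without treatment and 0.27 after 5-aza. Hoxc13, a homeobox factor that binds hair keratin promoters, had 24.4 and 30.7 FPKM in untreated DKO libraries, against 9.49 and 15.8 FPKM in WT libraries. After 5-aza it had 22.0 and 23.1 FPKM in DKO libraries, against 13.0 and 11.6 FPKM in WT libraries. Hoxc13 therefore did not overlap in either table, and in the authors' deposited table it was called higher in both (log2 fold change 1.11, adjusted p = 7.59e-06 without treatment; 0.81, adjusted p = 2.18e-07 after 5-aza). Foxn1, the factor lost in nude mice, had 7.08 and 8.10 FPKM in untreated DKO libraries, against 3.72 and 3.31 FPKM in WT libraries. Ovol1, a zinc finger factor of differentiating keratinocytes, had 17.2 and 19.3 FPKM in untreated DKO libraries, against 11.7 and 11.1 FPKM in WT libraries. The authors' deposited table called Foxn1 (log2 fold change 1.08, adjusted p = 4.25e-05) and Ovol1 (0.65, adjusted p = 0.00378) higher without treatment. Runx1, a factor of hair cycle and shaft formation, had 2.26 and 2.12 FPKM in 5-aza DKO libraries, against 1.37 and 1.50 FPKM in WT libraries. The authors' deposited table called 3 of the 14 higher without treatment, against 0.793% of its genes, and 1, Vdr, lower, against 0.486%. It called Hoxc13 and Runx1 higher after 5-aza, against 0.547% of the genes in the authors' deposited table. By limma 0 of the 14 passed in either table (smallest adjusted p = 0.117).

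The members also varied together across libraries. With log2(FPKM + 1) centred within each table, Pearson's r over the 8 libraries was 0.972 to 0.993 between any 2 of Krt81, Krt83, Krt86 and Krt87. Krt82 correlated with the other members at 0.661 to 0.837 and Krt84 at 0.661 to 0.888. Libraries of 1 table share their scaling, and every gene that is high in untreated DKO shares part of this pattern, so the values are a description. Among 8692 genes outside the family with a mean of at least 1 FPKM in each table, the 8 most like the mean profile of the members had an r of 0.990 to 0.999. They were Krtap13-1, Krt33a, Krt34, Gprc5d, Gm10229, 4930553J12Rik, Krt31 and Krtap11-1. Krtap13-1, the closest, had 9.56 and 16.5 FPKM in untreated DKO libraries, against 0.760 and 1.35 FPKM in WT libraries. After 5-aza it had 0.811 and 3.39 FPKM in DKO libraries, against 1.75 and 0.350 FPKM in WT libraries. Gprc5d, which encodes an orphan receptor, had 6.32 and 9.96 FPKM in untreated DKO libraries, against 0.972 and 1.37 FPKM in WT libraries. Krt31, Krt33a and Krt34 lie on chromosome 11, Gprc5d on chromosome 6 and the other 4 on chromosome 16, so none of the 8 is in the cluster of the members.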

How the data were processed

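Values were used from 8 RNA libraries of sorted mouse hair matrix keratinocytes, grouped by the labels' titles into DKO and WT, untreated and after 5-aza, with 2 libraries each. The submitters' processing notes list the tools STAR, Trim Galore, HTSeq, DESeq2, and the mouse builds mm10 and GRCm38; no version is given. The labels name both a stranded total RNA kit with ribosomal RNA removed and a SMARTER messenger RNA kit, and the strand setting of the counting is not given in the sources used here. The authors deposited 1 table per comparison, whose library columns hold FPKM scaled by the authors to each library's total. Value times length gave whole reads within 0.001 reads for 100% of values, which also gave each library's total. The share of that total in no listed gene was 38.0% to 44.2% in untreated and 57.6% to 61.6% in 5-aza libraries; the 5-aza table alone has rows for unaligned and low-quality reads. Other columns deposited by the authors are the mean normalised signal, the log2 fold change with its SE, the test statistic (a score), the p-value and adjusted p-value of their DESeq2 test, and gene length. The deposited log2 fold change is WT over DKO and its sign was reversed.

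Values were taken as log2(FPKM + 1) and tested two-sided by limma (version 3.58.1, R 4.3.3), which modelled the trend of the variance. P-values had Benjamini-Hochberg adjustment over all genes that passed a low-value filter. The filter required 15 reads in total and a minimum share of the reads in listed genes in 2 libraries. That minimum was the share that 10 reads make in a library with the median number of reads in listed genes. The deposited unit is FPKM, so the main test was on the log scale, with limma-voom on recovered reads as the count-based alternative; edgeR and DESeq2 were not run here. The fit was tested on simulated data, with a spread between libraries that was set and not estimated from these data. Alternatives were a pseudocount of 0.1, no filter, 2 other scalings, no trend, limma-voom on recovered reads, all 8 libraries in 1 fit, a replicate block and leaving out each library. Members and gene lists were chosen with earlier results of these data known. Named genes were all members found, up to 4 of each other list with the smallest unadjusted p in either comparison, the 8 genes of most like pattern, Tet2 and Tet3 and cluster neighbours; others (Krt35, Krt5, Vdr) were chosen after their values were seen. Sequences came from GENCODE M21 transcripts and a RefSeq promoter table, aligned with Biopython 1.88.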

Additional observations from a re-analysis of the deposited data

How the results depend on the processing

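The untreated differences of the 6 keratins kept a positive sign in each of 48 values under 8 other settings and in each of 24 values with 1 library left out, and their median lay between 2.22 and 2.86. The count of genes called over all tested was 1 without treatment, 0 to 0 with 1 library left out, 0 with no filter, 0 with no variance trend, 8 with a pseudocount of 0.1, 77 with limma-voom on recovered reads and 111 with all 8 libraries in 1 fit. With limma-voom Krt81 (adjusted p = 0.0117), Krt87 (adjusted p = 0.0155), Krt83 and Krt86 (adjusted p = 0.0213 each) passed; over all settings and left-out libraries the adjusted p ran from 0.0117 to 0.483 for Krt81 and from 0.0155 to 0.420 for Krt87. After 5-aza the count was 0, and 1 with all 8 libraries in 1 fit. For the interaction it was 3, 1 with a pseudocount of 0.1, and 0 to 2 with 1 library left out.

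The labels do not say that replicate numbers pair the libraries, and deviations of same-numbered libraries correlated at 0.03 without treatment and at -0.59 after 5-aza. With a replicate block 13 genes were called without treatment, among them Krt81, Krt86 and Krt87 (adjusted p = 0.0314 each), and 0 for the interaction. With crossed numbers after 5-aza, a pairing chosen after seeing the data, 91 genes were called.

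With 1 library left out after 5-aza, the median of the members ran from -0.18 to 1.00, Krt81 from -0.40 to 1.23, Krt82 from -0.40 to 0.16 and Krt83 from -0.49 to 1.05, and the interaction of Krt84 from -0.18 to 0.12. The cause was not tested. Shares computed from reads in place of FPKM moved by more than the spread in 11 values. A lone library left in a group is assumed to vary like the others. Krt84 rests on few reads in untreated WT, and 2 libraries per group limit every p-value.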
